A study of Mus musculus with 50 samples.

Results

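Tracheal perfusate of mice with IL-13, no Stat6 of their own and the mark Epi+ was compared with perfusate of mice given phosphate-buffered saline (PBS). The comparison took all 5 arrays titled as Epi+ IL-13 perfusate and all 5 titled as PBS perfusate, 10 of the 50 arrays of the series. Tracheal perfusate is RNA flushed from the trachea, and each array gives the log2 ratio of that RNA to a reference RNA on a spotted array of 2 colours. The labels name the Epi+ group IL-13+ Stat6-/- Epi+. They name only PBS for the controls, with no genotype, and give no strain or age for either group. Neither the source of the IL-13 nor the meaning of Epi+ is spelled out in the labels. In lines known by this mark a transgene restores Stat6 in airway epithelium from the promoter of the club cell secretory protein, so only cells that use that promoter would carry it. IL-13, the loss of the endogenous Stat6 and the Epi+ allele cannot be told apart in this comparison, since the controls are not labelled with any of them. The fit also held 15 other perfusate arrays, 5 each from IL-13 Stat6-/- mice, from IL-13 Stat6+/- mice and from mice given ovalbumin (OVA). Each of the 5 reference preparations, 1.1 to 1.5, held 1 array of every perfusate group. RNA had 1 round of amplification per the labels, except that the labels of the Epi+, PBS and OVA arrays of preparation 1.3 do not state it. The label of Epi+ replicate 16, on that preparation, does not describe its RNA. The labels do not say whether each array stands for an animal of its own. The p-values therefore rest on the scatter among these samples, part or all of which may be technical.

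IL-13 is a cytokine of T helper cells that binds a receptor of Il4ra and Il13ra1 chains, whose kinases phosphorylate Stat6. Stat6 then pairs with itself and binds palindromic sites in DNA. In airways this pathway is known for turning epithelium toward mucus production and for recruiting eosinophils. Stat6 acts in many cell types, and an epithelial transgene in Stat6-/- mice is meant to leave the response to the epithelium.

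All values are log2 ratios centred on the median of their array, arrays are listed in the order of preparations 1.1 to 1.5, and differences are Epi+ minus PBS from limma with the preparation as a block, ± their standard error. A probe was called at an adjusted p (Benjamini-Hochberg) under 0.05. The labels leave the direction of the ratio open, and sample over reference was assumed because Il13 itself is then higher in the IL-13 arrays; every statement of higher or lower rests on this. Centring removed a shift of the array medians of -0.18 (Epi+ mean -0.32, PBS mean -0.14), and differences are relative to it. The 10 arrays had a value at 16767 to 18537 spots, fewest on PBS replicate 24, and precision is limited by having 5 arrays a group. A ratio to a reference gives no absolute level, so the epithelial origin of the RNA was not checked.

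Of 16873 probes tested, 478 (2.83%) were called, 215 higher (1.27%) and 263 lower (1.56%) in Epi+ perfusate. The median difference over all probes tested was -0.05, and 45.7% of the differences were above 0. A difference of at least 1 was found in 75 of the higher and 111 of the lower probes. These calls borrow the spread of all 25 perfusate arrays. With the 10 arrays alone limma called 0 probes, at a lowest adjusted p of 0.0810 and with 2787 probes at an unadjusted p under 0.05, against 3455 in the fit of 25 arrays. The count ranged from 192 to 871 when 1 of the 10 arrays was left out. It was 192 without Epi+ replicate 17, 258 without Epi+ replicate 19, 269 without Epi+ replicate 20, 202 without PBS replicate 22, 201 without PBS replicate 23, 267 without PBS replicate 24, 308 without PBS replicate 26 and 871 without PBS replicate 25. Without centring 69 probes were called, and with quantile normalization the higher calls made up 59.5% of the calls in place of 45.0%.

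Il13 was read first. Since the direction of the ratio was set by it, its sign is no check of the labels, but the separation of the arrays does not depend on that choice. Its log2 ratio was 1.84, 2.68, 2.01, 2.08 and 1.81 on the Epi+ arrays and -0.37, 0.11, 0.48, 0.19 and -0.22 on the PBS arrays. The groups did not overlap, and Il13 was higher by 2.05 ± 0.21 (limma, adjusted p = 6.02e-05), a fold of 4.13. Stat6 was at 0.63, 0.30, 1.01, 0.87 and 0.43 in Epi+ and at 0.61, 0.49, 1.26, 1.04 and 0.22 in PBS. Its values overlapped, with a difference of -0.07 ± 0.14 (adjusted p = 0.790). In Stat6-/- perfusate without Epi+ the same probe differed from PBS by 0.03, so this probe did not separate the genotypes and checks no label. Whether it lies in the deleted part of the gene, or would detect a transgene, was not determined.

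**Figure D1:**
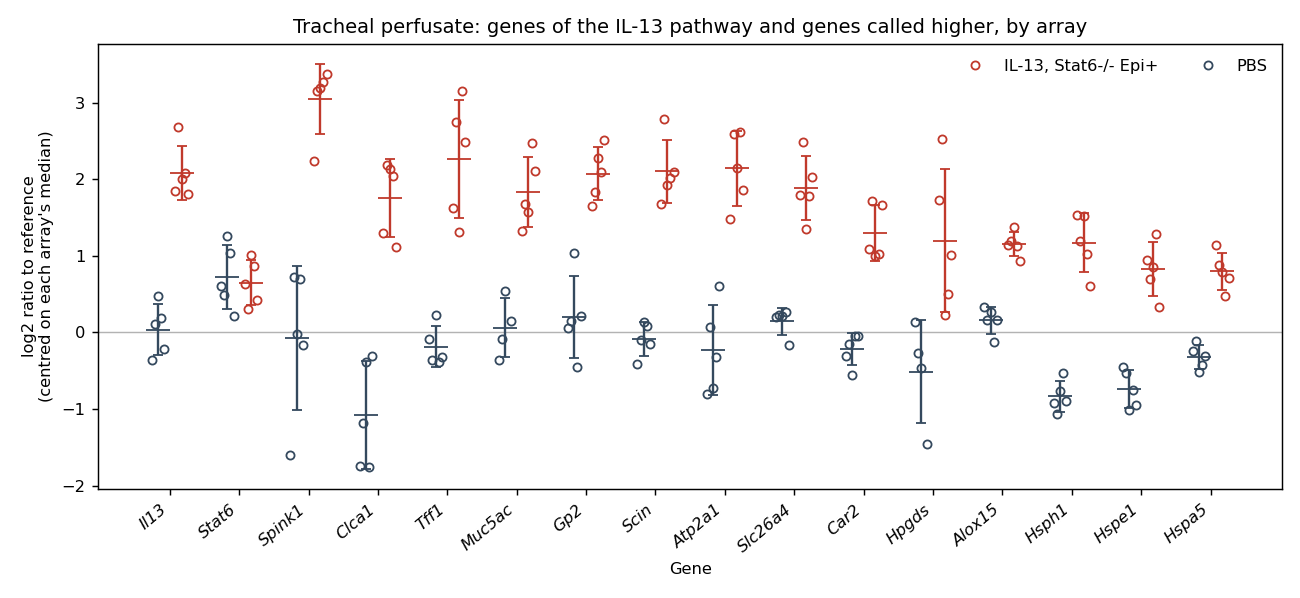
Log2 ratio to the reference, centred on each array's median (vertical axis), of Il13, Stat6 and 14 genes called higher (horizontal axis), with 1 circle per array, red for Epi+ and dark for PBS, and bars for the mean ± SD. Stat6 is the only gene shown whose groups overlap.

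Of the 21 tested genes of the IL-13 and Stat6 pathway, Il13 alone was called (1 higher, 0 lower), and the median difference was -0.02. That call was 4.76% of the list, against 1.27% of all probes called higher. The receptor chain Il13ra1 differed by -0.55 ± 0.30 (adjusted p = 0.295) and the decoy receptor Il13ra2 by -0.91 ± 0.43 (adjusted p = 0.242), with 1 PBS array missing for the latter. Cish, a feedback inhibitor of cytokine receptors, differed by -1.03 ± 0.32 (adjusted p = 0.0922). The epithelial cytokine Il33 differed by -1.42 ± 0.56 (adjusted p = 0.169). Genes near Stat6 on its chromosome, which can differ between mouse strains around a targeted allele, were read as a check. Of the 50 nearest named genes 38 were tested and 0 were called, against 2.83% of all probes, and their median difference was 0.09. At that share 38 genes would hold few calls, so the count is a weak check, and a strain difference was not tested.

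Stat6 is known to bind a palindrome of TTC and GAA with 4 bases of any kind between them, and this motif, which reads the same on both strands, was searched in RefSeq promoter windows of assembly GRCm38.p6, 250 bases before to 50 after the gene start. It was present for 703 of 10263 genes with a tested probe and a window (6.85%). Among genes called higher it was present for 9 of 141 (6.38%), and among genes called lower for 10 of 174 (5.75%). Of the 20 largest rises 15 had a window and 1 of them, Aoc1, held the motif. Of the 20 largest falls 12 had a window and 2 of them (16.7%) held it, A930009A15Rik on chromosome 10 with TTCTCTGGAA at position -118 and C8b on chromosome 4 with TTCCATGGAA at position -127, relative to the gene start. The window of Aoc1 is shown because it is the single match among the rises, chr6:48895005-48895304 on the plus strand, with the match in capitals starting at position -211 relative to the gene start.
Aoc1: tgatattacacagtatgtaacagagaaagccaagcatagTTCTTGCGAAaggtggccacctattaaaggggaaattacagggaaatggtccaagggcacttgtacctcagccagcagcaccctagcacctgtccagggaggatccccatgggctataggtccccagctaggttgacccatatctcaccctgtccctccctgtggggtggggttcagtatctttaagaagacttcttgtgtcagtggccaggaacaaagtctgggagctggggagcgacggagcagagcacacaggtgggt
A match is a description of letters and not a binding site.

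Genes of mucous cells held the 3 largest rises of all probes called, Spink1, Clca1 and Tff1. Of 33 tested members of the mucus list, 5 were called higher (15.2%, against 1.27% of all probes) and 0 lower, with a median difference of 0.21. Members of this and the other lists were chosen with earlier results of these data known, so such shares are no independent support. Of the 33 differences 21 were above 0. Muc5b, Foxa3 and Fut2 differed by -0.36, -0.43 and -1.02, and Spdef and Agr2 by 0.33 and 0.46, all without a call. Spink1, a secreted inhibitor of trypsin, was at 2.24, 3.16, 3.19, 3.27 and 3.37 in Epi+ and at -1.60, 0.72, -0.02, 0.70 and -0.16 in PBS. Every Epi+ array stood above every PBS array, and Spink1 was higher by 3.12 ± 0.43 (adjusted p = 5.98e-04), a fold of 8.68. Clca1, a secreted protein of goblet cells that acts on mucus and on chloride currents, was at 1.29, 2.19, 2.14, 2.05 and 1.11 in Epi+ and at -1.75, -1.19, -0.39, -1.75 and -0.30 in PBS. It rose by 2.83 ± 0.31 (adjusted p = 6.02e-05), a fold of 7.12, with no overlap. Probes for Clca1 and its close relative Clca3b may share signal.

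Tff1, a trefoil peptide secreted with mucin, was at 1.63, 2.75, 1.31, 3.15 and 2.49 in Epi+ and at -0.08, -0.37, 0.23, -0.39 and -0.33 in PBS, a rise of 2.45 ± 0.42 (adjusted p = 0.00353). Muc5ac, the gel-forming mucin of goblet cells, was at 1.33, 1.68, 1.57, 2.47 and 2.11 in Epi+, and at -0.36, -0.08, 0.54 and 0.14 on the 4 PBS arrays with a value. It rose by 1.69 ± 0.32 (adjusted p = 0.00789), a fold of 3.22, again with no overlap. Gp2, a membrane glycoprotein of secretory granules, was at 1.65, 1.83, 2.27, 2.09 and 2.52 in Epi+ and at 0.06, 0.15, 1.04, -0.45 and 0.22 in PBS, a rise of 1.87 ± 0.23 (adjusted p = 2.35e-04). Each of the 10 fits without 1 array called the same number of mucus genes, 5. The fit without centring called 4 of them, with Muc5ac at an adjusted p of 0.0870.

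Transport genes split between the directions, with 3 called higher and 3 lower of 34 tested and a median of -0.16. Each direction made up 8.82% of the list, against 1.27% higher and 1.56% lower of all probes. Slc26a4, the anion exchanger pendrin, was at 1.80, 2.49, 1.34, 1.78 and 2.03 in Epi+ and at 0.20, 0.22, 0.21, 0.27 and -0.17 in PBS. It rose by 1.74 ± 0.28 (adjusted p = 0.00249), with all Epi+ arrays above all PBS arrays. Atp2a1, a calcium pump of the sarcoplasmic reticulum, was at 1.48, 2.60, 2.15, 2.62 and 1.86 against -0.81, 0.07, -0.72, -0.32 and 0.61, a rise of 2.38 ± 0.27 (adjusted p = 9.91e-05). Car2, a carbonic anhydrase, rose by 1.52 ± 0.22 (adjusted p = 9.71e-04). The falls were in the sodium and glucose transporter Slc5a1 (by 1.36 ± 0.21 on the log2 scale, adjusted p = 0.00134), the phosphate transporter Slc34a2 (by 1.20 ± 0.25, adjusted p = 0.0141) and the chloride loading cotransporter Slc12a2 (by 0.78 ± 0.17, adjusted p = 0.0166). Slc34a2 lost its call without PBS replicate 23 (adjusted p = 0.0510), and Slc12a2 in 3 of the 10 fits without 1 array (highest adjusted p = 0.0588). Without centring Car2 (adjusted p = 0.0553), Slc34a2 (0.0679) and Slc12a2 (0.113) were not called, which left 2 higher and 1 lower.

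Enzymes of eicosanoid metabolism, which make and break lipid mediators from arachidonic acid, gave 3 higher and 1 lower of 23 tested (median 0.11). Those shares were 13.0% and 4.35%, against 1.27% higher and 1.56% lower of all probes. Hpgds, a prostaglandin D synthase, was at 1.73, 2.52, 0.23, 0.51 and 1.01 in Epi+ and at 0.14, -0.27, -0.47 and -1.45 on 4 PBS arrays. Its groups came within a small distance of each other without overlap, and it rose by 1.77 ± 0.32 (adjusted p = 0.00641). The secreted phospholipase Pla2g10 rose by 1.80 ± 0.37 (adjusted p = 0.0129). Alox15, a lipoxygenase known as a target of IL-4 and IL-13, was at 1.15, 1.20, 1.38, 1.12 and 0.93 against 0.33, 0.17, 0.26, -0.13 and 0.16, a rise of 1.00 ± 0.18 (adjusted p = 0.00586). Hpgd, which inactivates prostaglandins, fell by 1.04 ± 0.26 (adjusted p = 0.0386), and lost its call in 8 of the 10 fits without 1 array (highest adjusted p = 0.107). Without centring Pla2g10 (adjusted p = 0.0657), Alox15 (0.165) and Hpgd (0.0803) were not called.

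Chaperones of the endoplasmic reticulum, which fold secreted proteins, were called higher in 5 of 34 tested genes of the secretory pathway list (14.7%, against 1.27% of all probes) and lower in 0, with a median of 0.17. Hspa5 (BiP), the main chaperone of that compartment, was at 1.14, 0.88, 0.79, 0.47 and 0.71 in Epi+ and at -0.24, -0.11, -0.51, -0.43 and -0.30 in PBS. Hspa5 rose by 1.12 ± 0.16 (adjusted p = 7.03e-04), with all Epi+ arrays higher. Manf, a secreted protein induced by stress in that compartment, rose by 1.02 ± 0.19 (adjusted p = 0.00757). Creld2, Hsp90b1 and Sdf2l1 were higher by 0.76, 0.75 and 0.66 (adjusted p of 0.0384, 0.0327 and 0.0495). Leaving out 1 array cost calls: between 2 and 3 of these genes were called in such fits, with Sdf2l1 called in none of the 10. No gene of this list was called without centring.

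Heat shock chaperones of the cytosol and mitochondria gave 5 higher (25.0%, against 1.27% of all probes) and 1 lower of 20 tested (5.00%, against 1.56%), with a median of 0.45. Hsph1, a partner of Hsp70 proteins, was at 1.53, 1.19, 1.52, 1.02 and 0.61 in Epi+ and at -0.92, -1.06, -0.76, -0.54 and -0.89 in PBS, a rise of 2.01 ± 0.22 (adjusted p = 6.02e-05). Hspe1, the mitochondrial partner of Hsp60, rose by 1.56 ± 0.19 (adjusted p = 2.50e-04) and Hsp90aa1, the inducible cytosolic Hsp90, by 1.02 ± 0.19 (adjusted p = 0.00641). The Hsp70 cochaperones Stip1 and St13 were higher by 0.67 and 0.63 (adjusted p of 0.0382 and 0.0309), and lost their calls in 8 and 7 of the 10 fits without 1 array. Members of the Hsp70 family differed among themselves. Hspa1b, Hspa4l, Hspa9 and Hspa4 differed by 0.78, 0.83, 0.44 and 0.08 without a call, beside the rise of Hspa5 above. Hspa8 was at -1.53, -1.64, -2.20, 0.34 and -1.27 in Epi+ and at -0.19, 0.22, 1.52, 1.13 and 0.56 in PBS, overlapping on 1 Epi+ array, and fell by 1.91 ± 0.37 (adjusted p = 0.00866). The call of Hspa8 was lost without preparation 1.3 (adjusted p = 0.0652). Hspa1a differed by -1.39 ± 0.42 (adjusted p = 0.0795), opposite in sign to its close relative Hspa1b. Probes for Hspa1a and Hspa1b may share signal, so neither value is read as a change of that gene alone. Between 3 and 6 members were called higher with 1 array left out, and 2 without centring.

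Genes of ciliated cells were called higher in 4 of 28 tested (14.3%, against 1.27% of all probes) and lower in 0. The list's median difference was 0.48, and 23 of the 28 differences were above 0. Ift172, a protein of transport within cilia, was at 0.77, 0.70, 0.36, 0.72 and 0.68 in Epi+ and at 0.00, -0.23, -0.21, -0.17 and -0.16 in PBS, a rise of 0.80 ± 0.14 (adjusted p = 0.00411). Mns1, Cfap53 and Cfap45, proteins of the axoneme, were higher by 0.94, 0.88 and 0.79 (adjusted p of 0.0175, 0.0318 and 0.0457). Between 1 and 5 genes were called with 1 array left out, 2 without preparation 1.3, 1 without the reference block and 0 without centring. In bulk RNA, fewer or more cells of a type and less or more RNA per cell cannot be told apart, here and in the lists below.

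**Figure D2:**
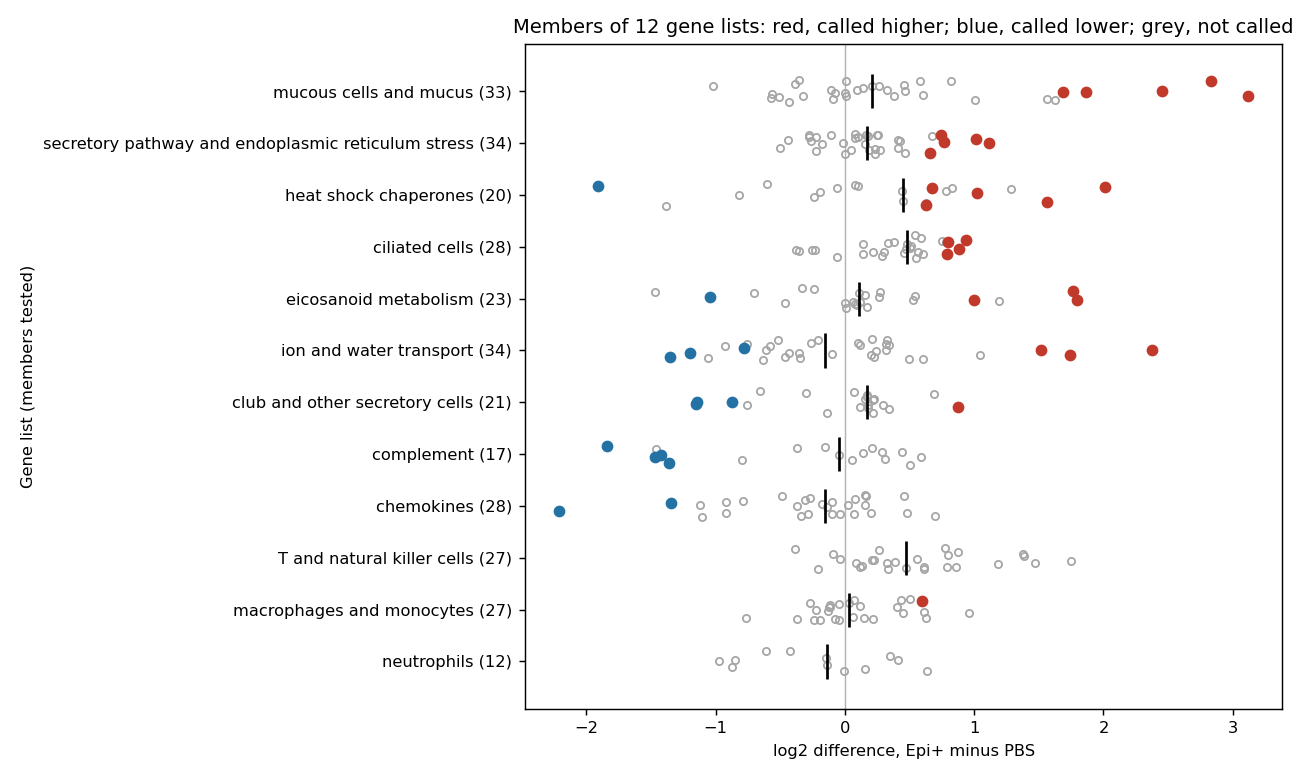
Log2 difference, Epi+ minus PBS (horizontal axis), of each tested member of 12 gene lists (vertical axis, number tested in brackets), with called members in red (higher) or blue (lower), others in grey, and a black line at the list's median. Mucus, chaperone and cilia lists carry calls to the right, complement and chemokine lists only to the left, and the T and natural killer cell list lies to the right with no call.

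Markers of club and other secretory cells gave 1 higher (4.76%) and 3 lower (14.3%) of 21, against 1.27% and 1.56% of all probes. The list median was 0.17, and 14 of the 21 differences were above 0. The markers Scgb1a1, Scgb3a2 and Cyp2f2 differed by 0.22, 0.16 and 0.17 without a call. Nupr1, a stress-induced regulator, rose by 0.88 ± 0.15 (adjusted p = 0.00296, and 0.143 without centring). Hp, the haemoglobin scavenger haptoglobin, was at -0.06, -0.50, -0.53, -0.21 and -0.26 in Epi+ and at 0.74, 0.98, 0.76, 0.93 and 0.77 in PBS, with no overlap and a fall of 1.15 ± 0.19 (adjusted p = 0.00291). Cckar, a receptor of cholecystokinin, fell by 1.15 ± 0.29 (adjusted p = 0.0409) and the secreted Bpifa2 by 0.87 ± 0.21 (adjusted p = 0.0326). Cckar was called in none of the fits without 1 array, and Bpifa2 in 4 of them.

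Sftpa1, the surfactant protein A gene, which is expressed by alveolar and also by airway secretory cells, gave the smallest adjusted p among the called falls. It was at -1.91, -2.25, -1.26, -2.04 and -2.13 in Epi+ and at 0.21, 0.85, 0.05, 0.32 and 0.70 in PBS. Sftpa1 was lower on every Epi+ array and fell by 2.34 ± 0.25 (adjusted p = 6.02e-05), a fold of 5.08 between the groups. Of 13 tested alveolar and surfactant genes 0 were called higher and 2 lower (15.4%, against 1.56% of all probes), Sftpa1 and Slc34a2. The list median was -0.10. Sftpd differed by -0.76 ± 0.23 (adjusted p = 0.0858).

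Complement genes were called lower in 4 of 17 tested (23.5%, against 1.56% of all probes) and higher in 0, with a median of -0.05. Cfb, a factor of the alternative pathway, was at -2.91, -2.44, -3.30, -2.57 and -2.72 in Epi+ and at -1.15, -0.76, -1.30, -1.03 and -0.48 in PBS. Every Epi+ array was lower and the fall was 1.84 ± 0.27 (adjusted p = 0.00102). C1ra and C1s1, the proteases of the classical pathway, fell by 1.47 ± 0.21 and 1.42 ± 0.28 (adjusted p of 9.92e-04 and 0.00991). C2 fell by 1.36 ± 0.31 (adjusted p = 0.0223), and its call was lost in 4 of the 10 fits without 1 array and in the fit without centring (adjusted p = 0.0627), as was that of C1s1 in the latter (0.0679).

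Of 28 chemokine genes 0 were called higher and 2 lower (7.14%, against 1.56% of all probes), with a median of -0.16. Ccl20, which attracts cells that carry Ccr6, was at -2.37, -2.57, -2.57, -2.14 and -2.30 in Epi+ and at -1.09, -0.27, -1.51, -1.16 and -1.20 in PBS, without overlap, a fall of 1.34 ± 0.24 (adjusted p = 0.00601). Cxcl1, an attractant of neutrophils, was at -3.28, -3.61, -3.95, -2.71 and -2.53 against -1.43, 0.43, -2.03, -0.20 and -1.81. It fell by 2.21 ± 0.53 (adjusted p = 0.0312), and its call was lost in 6 of the 10 fits without 1 array (highest adjusted p = 0.0956). Both lost their calls with quantile normalization (adjusted p of 0.102 and 0.0693). Zc3h12a, a nuclease that degrades inflammatory mRNAs, fell by 1.76 ± 0.26 (adjusted p = 9.96e-04).

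**Figure D3:**
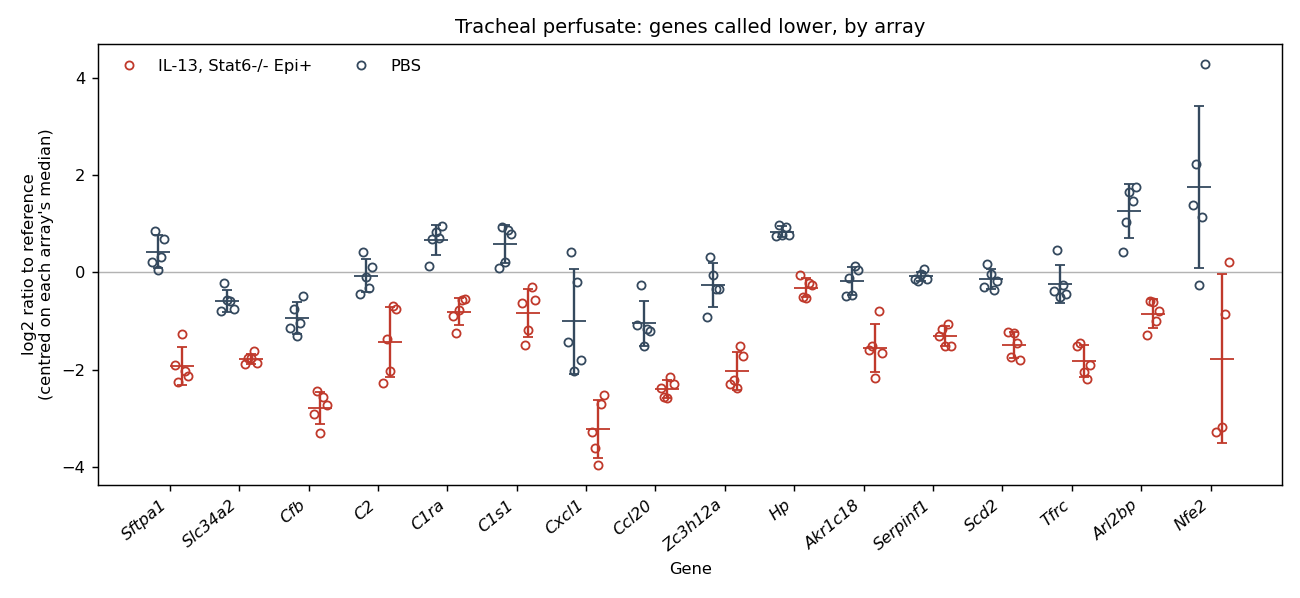
Log2 ratio to the reference, centred on each array's median (vertical axis), of 16 genes called lower (horizontal axis), with 1 circle per array, red for Epi+ and dark for PBS, and bars for the mean ± SD. Sftpa1, Cfb and Ccl20 show groups that are tight and apart, whereas the PBS arrays of Nfe2 run from -0.26 to 4.28.

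Of 54 tested genes of xenobiotic and glutathione metabolism, 5 were called lower (9.26%, against 1.56% of all probes) and 1 higher (1.85%, against 1.27%). Of the differences 30 were above 0, and the median was 0.04. The balance of calls depended on the scaling, with 3 lower and 5 higher under quantile normalization and 4 lower and 5 higher with arrays scaled to one spread. Akr1c18, a reductase of progesterone, fell by 1.37 ± 0.21 (adjusted p = 0.00131), Fmo1 by 1.06 ± 0.20 (adjusted p = 0.00820) and Gstt3 by 1.04 ± 0.17 (adjusted p = 0.00291). The dehydrogenase Adh1 and the oxidase Aox3 fell by 0.84 and 0.69 (adjusted p of 0.0424 and 0.0174), and lost their calls in 9 and 3 of the 10 fits without 1 array. Cyp2b10, a cytochrome of the liver and lung, rose by 0.95 ± 0.18 (adjusted p = 0.00710). Its call was lost without centring (adjusted p = 0.171) and without preparation 1.3 (0.0570). With PBS replicate 25 left out, 4 genes were called higher and 8 lower.

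Single genes of other lists moved too, where 1.27% of all probes were called higher and 1.56% lower. Scd2, a fatty acid desaturase, was at -1.22, -1.73, -1.24, -1.45 and -1.80 in Epi+ and at -0.29, 0.18, -0.04, -0.36 and -0.18 in PBS, a fall of 1.35 ± 0.18 (adjusted p = 4.56e-04), and was the 1 called gene of 29 lipid genes. Tfrc, the transferrin receptor, fell by 1.59 ± 0.25 (adjusted p = 0.00178), but another probe of the gene differed by -0.56 ± 0.23 (adjusted p = 0.183). Serpinf1, a secreted serpin, fell by 1.23 ± 0.18 (adjusted p = 9.96e-04), and Plat, the tissue plasminogen activator, rose by 1.05 ± 0.21 (adjusted p = 0.0107), beside Spink1 the only gene called higher of 38 proteases and inhibitors. The tight junction gene Cldn2 rose by 1.32 ± 0.24 (adjusted p = 0.00689) on 4 PBS arrays, 1 of 26 junction and keratin genes. Plat and Cldn2 lost their calls without centring (adjusted p of 0.179 and 0.120) and without the reference block (0.138 and 0.0561).

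Chil1, a chitinase-like protein, fell by 1.62 ± 0.37 (adjusted p = 0.0264). With the rise of Alox15 this made 1 lower and 1 higher of 19 genes of alternative activation. Each call was 5.26% of that list, against 1.56% lower and 1.27% higher of all probes. Chil1 lost its call in 5 of the 10 fits without 1 array (highest adjusted p = 0.0903). Retnla, a secreted protein known to respond to IL-13, differed by 0.69 ± 0.55 (adjusted p = 0.486), with 1 PBS array at 2.76. The hemidesmosome collagen Col17a1 of basal cells fell by 0.92 ± 0.19 (adjusted p = 0.0144, and 0.0509 without PBS replicate 22). It was the 1 called gene of 22 basal and squamous genes (4.55%, against 1.56% of all probes called lower). Of the 22 differences 9 were above 0. Its call was also lost with quantile normalization (adjusted p = 0.0527), without the reference block (0.137), without preparation 1.3 (0.0676) and without centring (0.0797). Jun fell by 1.17 ± 0.22 (adjusted p = 0.00789), Tgfb3 by 0.80 ± 0.16 (adjusted p = 0.00871) and the endothelial receptor partner Ramp2 by 1.40 ± 0.24 (adjusted p = 0.00353). Without centring Jun (adjusted p = 0.0581) and Tgfb3 (0.0616) were not called. Of 29 interferon genes Mx1 and Usp18 (6.90%, against 1.27% of all probes) were higher by 0.59 and 0.83 (adjusted p of 0.0391 and 0.0456). Another probe of Usp18 was higher by 0.87, and fits without 1 array called at most 1 of these genes. Of 38 cell cycle genes Cdc6 fell by 0.98 ± 0.23 (adjusted p = 0.0268) and Kif20a by 2.21 ± 0.51 (adjusted p = 0.0330). These were 5.26% of the list, against 1.56% of all probes called lower, with 0 to 4 calls over the fits without 1 array.

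Among immune cell lists, 0 genes were called of 27 for T and natural killer cells, 17 for B and plasma cells, 12 for neutrophils, 21 for eosinophils, basophils and mast cells, and 17 for MHC class II. Over all probes 2.83% were called, and at that share lists this short would hold few calls, so these counts say little about those cells. Without PBS replicate 25, 1 gene of the T and natural killer cell list was called higher. In the same fit 1 gene of the eosinophil, basophil and mast cell list was called lower. Outside these lists, the immunoglobulin kappa gene Igk-V21 fell by 2.70 ± 0.50 (adjusted p = 0.00855), and the mast cell protease pseudogene Mcpt-ps1 was also called lower. Both stayed called in each fit without 1 array. Igk-V21 lost its call without the reference block and Mcpt-ps1 without preparation 1.3. The T and natural killer cell list had a median of 0.48, with 23 of 27 differences above 0. Its array medians ran from -0.11 to 0.42 in Epi+ and from -0.37 to -0.10 in PBS. Cd3d, a chain of the T cell receptor complex, was at -0.07, 1.11, 1.53, 0.33 and 1.27 in Epi+ and at -0.07, -0.65, -0.38, -1.34 and -0.31 in PBS, a difference of 1.39 ± 0.41 (adjusted p = 0.0744). Cd68, a lysosomal protein of macrophages, rose by 0.60 ± 0.13 (adjusted p = 0.0184, 0.0627 without Epi+ replicate 17 and 0.403 without centring). It was the 1 called gene of 27 for macrophages and monocytes (3.70%, against 1.27% of all probes called higher). The neutrophil genes S100a8 and S100a9 differed by -0.85 ± 0.57 and -0.97 ± 0.55 (adjusted p of 0.403 and 0.324).

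Cells of the tracheal wall were read from 4 lists. Of 37 fibroblast and matrix, 31 muscle and 21 cartilage and thyroid genes 0 were called, against 2.83% of all probes. Their medians were -0.19, 0.12 and 0.07. Of 20 endothelial genes only Ramp2 was called (5% lower, against 1.56% of all probes), with a list median of -0.36. The matrix gene Dcn came closest to a call, at -1.27 ± 0.34 (adjusted p = 0.0503), and with PBS replicate 25 left out 3 matrix genes were called lower. Whether shifts in cell composition entered the differences above was not tested.

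The remaining large rises came from genes outside these groups. Nadsyn1, which makes NAD, was at 0.99, 2.37, 1.70, 2.68 and 1.69 in Epi+ and at -0.80, -0.54, -0.74, -0.35 and 0.34 in PBS, a rise of 2.31 ± 0.27 (adjusted p = 1.64e-04). Scin, an actin-severing protein of secretory cells, was at 1.68, 2.79, 1.93, 2.02 and 2.10 against -0.41, -0.10, 0.14, 0.08 and -0.15, a rise of 2.19 ± 0.23 (adjusted p = 6.02e-05). Both genes separated the groups completely. Meiob, a protein of meiotic recombination, rose by 1.96 ± 0.26 and Aoc1, which degrades histamine and polyamines, by 1.91 ± 0.26 (adjusted p of 5.03e-04 and 5.34e-04). Serpinb12 rose by 1.78 ± 0.27 (adjusted p = 0.00131), while another of its probes differed by 0.81 ± 0.27 (adjusted p = 0.105). The retinoic acid receptor Rarg rose by 1.73 ± 0.30, the membrane protein Basp1 by 1.68 ± 0.21 and the kinase Vrk2 by 1.56 ± 0.19. Of the 20 largest rises, 19 had no overlap between groups, beside 1.36% of all probes that lay apart in that direction. They were picked from the same arrays as called and large with 1 sign throughout, so separation was largely built in. Of all 478 calls, 229 had no overlap. All 20 of these rises stayed called in each fit without 1 array, and 16 of them without centring.

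The largest falls were more scattered between arrays. Of the 20 largest falls, 12 had an SD above 1 in a group against 0 of the 20 largest rises, 8 had overlapping groups (2.07% of all probes lay apart in that direction), and 10 lost their call in at least 1 fit without 1 array. Nfe2, an erythroid transcription factor, was at -3.28, -3.17, -0.85 and 0.21 on 4 Epi+ arrays and at 1.38, 2.22, -0.26, 1.14 and 4.28 in PBS, a fall of 3.46 ± 0.53 (adjusted p = 0.00356). Asb15 fell by 3.18 ± 0.76 (adjusted p = 0.0318) and lost its call in 5 of the 10 fits without 1 array. Arl2bp, a binding partner of a small GTPase, was at -1.29, -0.58, -0.60, -0.99 and -0.79 against 0.41, 1.04, 1.65, 1.48 and 1.75, a fall of 2.12 ± 0.31 (adjusted p = 9.96e-04) with tighter groups. Mrm3 was between -0.14 and 0.09 on the PBS arrays and between -3.15 and -1.01 in Epi+, a fall of 2.11 ± 0.42 (adjusted p = 0.0118). The others, A930009A15Rik, Igk-V21, Ttyh1, C8b, Rnf20, 1810014B01Rik, Cnot10, Bdh2, Mcpt-ps1 and 4930465K10Rik, fell by 1.85 to 2.77. Rnf20 lost its call without Epi+ replicate 20 or PBS replicate 22 (highest adjusted p = 0.0519), and A930009A15Rik, Ttyh1, C8b, Cnot10, Bdh2, Kif20a and 4930465K10Rik in 6 to 9 of the 10 fits.

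The other perfusate groups give the levels around this comparison, and their comparisons share the PBS or the Epi+ arrays with it. Over all probes 7.13% were called for Stat6+/- against PBS, 0.599% for Stat6-/- against PBS and 0.237% for OVA against PBS. Set directly against Epi+, 0.486% of probes were called for Epi+ against Stat6-/-, 2.03% for Epi+ against OVA and 0.0237% for Epi+ against Stat6+/-. The last were 4 probes, with 1184 at an unadjusted p under 0.05 in limma. Clca3b, the relative of Clca1, differed from PBS by 0.38 in Epi+ and by 2.24 in Stat6+/-, and Epi+ lay below Stat6+/- with a difference of -1.86 ± 0.27 (adjusted p = 0.0319). Clca1 itself differed by -0.02 ± 0.31 between those groups. Hp was higher in Epi+ than in Stat6+/- by 1.20 ± 0.19 (adjusted p = 0.0400), the chaperone Dnajb1 differed by -1.38 ± 0.23 (adjusted p = 0.0496), and the fourth was a probe without a gene name. These genes were named after their values were seen.

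For several rises the differences from PBS were also above 0 in Stat6+/- and OVA, and Epi+ was higher than Stat6-/- in the direct test. Clca1 differed from PBS by 2.85 in Stat6+/-, 3.39 in OVA and -0.91 in Stat6-/-, and Epi+ was above Stat6-/- by 3.74 ± 0.31 (adjusted p = 3.92e-06). Muc5ac differed from PBS by 2.62, 2.81 and -0.76 in the same order, and by 2.44 ± 0.29 between Epi+ and Stat6-/- (adjusted p = 4.33e-04). Against OVA, Epi+ differed by -1.12 for Muc5ac (adjusted p = 0.0540) and by -0.56 for Clca1 (adjusted p = 0.355). Slc26a4, Scin, Atp2a1, Nadsyn1 and Tff1 were above Stat6-/- by 2.01, 2.12, 2.60, 2.56 and 2.64 (highest adjusted p = 0.00394), and differed from OVA by 0.08, 0.18, 0.02, 0.17 and 0.50 (adjusted p of 0.558 or more).

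Spink1 and Gp2 were high in Epi+ and Stat6+/- but not in OVA. Spink1 differed from PBS by 3.63 in Stat6+/-, -0.38 in OVA and 0.16 in Stat6-/-. Epi+ stood above OVA by 3.49 (adjusted p = 2.20e-04) and above Stat6-/- by 2.96 (adjusted p = 0.00162). For Gp2 these direct differences were 1.54 (adjusted p = 0.00116) and 1.68 (adjusted p = 0.00107), and for Meiob 1.75 (adjusted p = 0.00126) and 1.71 (adjusted p = 0.00333).

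For a further set the difference from PBS was above 0 in Stat6-/- too. Il13 differed from PBS by 2.72 in Stat6-/-, 1.73 in Stat6+/- and -0.23 in OVA, and Epi+ against Stat6-/- gave -0.67 (adjusted p = 0.261). Hspe1 differed from PBS by 1.55, 1.51 and -0.04 in that order, with a difference of 0.01 ± 0.19 between Epi+ and Stat6-/-. Hsph1 differed by 1.76, 1.84 and 0.15, with 0.25 ± 0.22 between Epi+ and Stat6-/-. Nupr1 and Cyp2b10 differed from PBS by 0.80 and 0.92 in Stat6-/-, and Epi+ exceeded it by 0.07 and 0.03. A p that misses the threshold does not show that the groups are alike.

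Falls divided in the same manner. Scd2 differed from PBS by -1.49 in Stat6-/- and by -0.36 in OVA, and Arl2bp by -2.24 and -0.16. Epi+ differed from Stat6-/- by 0.14 for Scd2 and by 0.12 for Arl2bp. For C1ra and C1s1 the differences of Stat6-/- from PBS were -1.34 and -1.23.

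Other falls were lower in Epi+ than in Stat6-/- when the groups were set against each other. Sftpa1 differed from PBS by -0.46 in Stat6-/-, -0.44 in OVA and -3.01 in Stat6+/-, and Epi+ lay below Stat6-/- by 1.88 (a difference of -1.88, adjusted p = 0.00103). Cfb differed by -0.06 and 0.65 in Stat6-/- and OVA, with Epi+ against Stat6-/- at -1.78 (adjusted p = 0.00319). Direct differences from Stat6-/- were -3.37 for Cxcl1 (adjusted p = 0.00351), -1.87 for Ccl20 (adjusted p = 7.49e-04), -1.71 for Akr1c18 (adjusted p = 4.04e-04), -1.32 for Hp (adjusted p = 0.00162) and -1.09 for Serpinf1 (adjusted p = 0.00530). In Stat6-/- these 5 genes differed from PBS by 1.16, 0.53, 0.34, 0.17 and -0.14 in the same order.

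**Figure D4:**
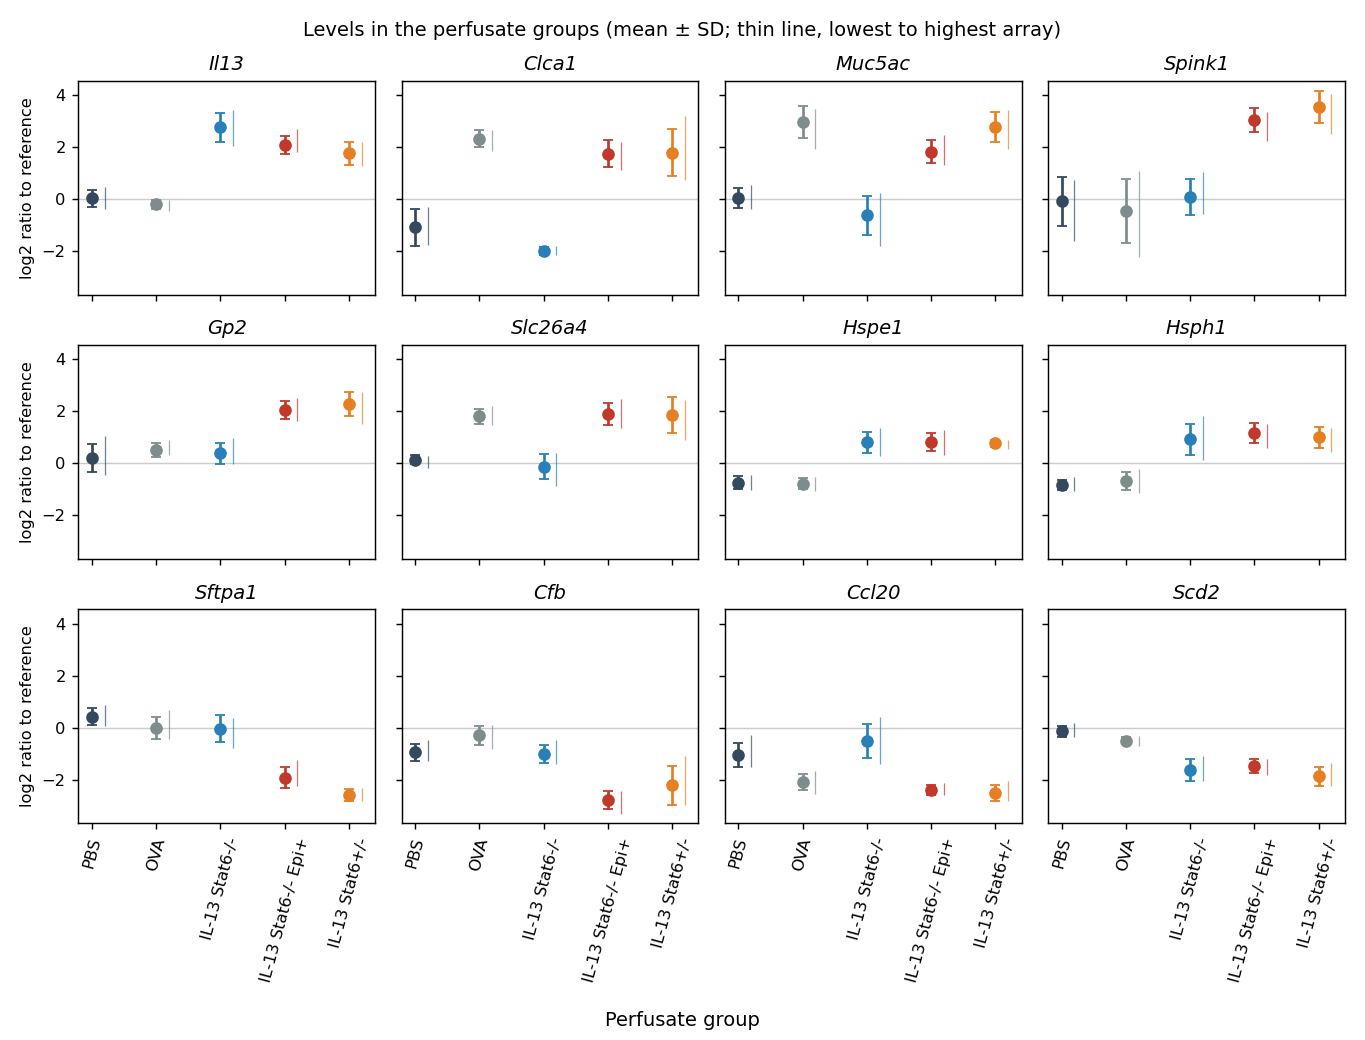
Log2 ratio to the reference, centred on each array's median (vertical axis, shared scale), of 12 genes in the 5 perfusate groups (horizontal axis), as mean ± SD with a thin line from the lowest to the highest array. Clca1 and Muc5ac are high in OVA and low in Stat6-/-, Spink1 and Gp2 are low in both, and Hspe1, Hsph1 and Scd2 lie apart from PBS in all 3 IL-13 groups.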

How the data were processed

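The values used are log2 ratios deposited by the authors, 1 per spot for each array of 19152 spots. Per the labels, channel 1 held the reference and channel 2 the sample. How the arrays were scanned, background corrected, filtered or normalized is not given in the sources, and the arrays had not been centred. Raised to the power of 2, 100% of the values were whole thousandths within a tolerance of 2e-04. Each array was centred on its median and spots of 1 accession were averaged, leaving 18272 probes. Symbols came from the platform annotation: 15418 spots had 1, 7 had several and 3727 were unlisted, which were tested but not named.

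A linear model of the 25 perfusate arrays with group and reference preparation was fitted with limma 3.58.1 in R 4.3.3, for probes with at least 3 values in each group, with Benjamini-Hochberg adjustment over all 16873 probes. The procedure was tested on simulated data. Without intensities, neither dye bias nor signal near background could be assessed.

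Members and the 37 gene lists were chosen with earlier results of these data known, and each list is described by counts and its median. Genes were named if they were among the 20 largest rises or falls that were called and went 1 way in at least 4 within-preparation differences and all others, if they belonged to the IL-13 and Stat6 list, if they were a called member of a list, or if they were among the 4 largest differences of a list. The Dixon ratio was read on the arrays of each group for the named genes. Alternatives were other normalizations, no or a random reference block, the 10 arrays alone, other filters, array weights, other moderation, single spots, a minimum difference and leaving out arrays. Whole lung Epi+ and PBS arrays used different platforms and were not compared.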

Additional observations from a re-analysis of the deposited data

Results flagged for a closer look

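Within groups of 5 arrays, 13 of 228 groups of the genes printed here had 1 array far from the other 4, where chance gives about 1 in 20. PBS replicate 25, on preparation 1.1, accounted for 6 of them and had an array weight of 0.492, next to the lowest of the 10 arrays (0.463, Epi+ replicate 16). It was lowest for Cd3g (-4.97), Cdc6 (-1.05), Cish (-0.065) and Manf (-1.02), and highest for Cd8b1 (0.39) and Ift172 (0.00). The Epi+ array of preparation 1.1 was lowest for Bdh2 (-4.39) and for Spink1 (2.24), the latter still above all PBS arrays. The Epi+ array of preparation 1.2 was lowest for Cish (-2.01). The Epi+ array of preparation 1.3 was lowest for Ift172 (0.36) and for the Y-linked gene Eif2s3y (-3.04), where the other Epi+ arrays were between 0.07 and 0.28. On that array the Y-linked Kdm5d was at 0.75 and Xist, the RNA of the inactive X chromosome, lay within the range of the other Epi+ arrays. The PBS array of preparation 1.2 was highest for Tfrc (0.45), and that of preparation 1.5 was lowest for Slc26a4 (-0.17).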

How the results depend on the processing

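The 478 calls (215 higher, 263 lower) became 69 (22 and 47) without centring, 0 (0 and 0) with the 10 arrays alone, where 2787 probes had an unadjusted p under 0.05 in limma, 107 (54 and 53) without the reference block, 251 (135 and 116) without preparation 1.3, 186 (75 and 111) at a difference of at least 1, and 1086 (497 and 589) with array weights. Quantile normalization raised the higher calls to 329. Leaving out 1 array gave 192 to 871 calls, 96 to 430 higher and 96 to 441 lower. Smaller samples and fewer residual degrees of freedom are part of the fits with fewer arrays, and the cause of the other changes was not tested. Of the genes printed above, Eif2s3y alone changed sign, to 0.10 without preparation 1.3 and 0.16 without Epi+ replicate 16, within a range of -0.81 to 0.16 over the fits without 1 array. All 86 called genes kept their sign with the 10 arrays alone. Where no value is missing both fits give the same difference, so this sign was fixed in advance and is no check. No paired analysis was possible because the 2 groups share no replicate numbers, other than the pairing by reference preparation, which the fit already holds as its block. The lack of intensities means that the signal over background behind a ratio is unknown.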

Other observations

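Genes outside the lists were also read among the 478 calls, and those named here were chosen after their values were seen, so they describe the calls and support nothing further. Genes known from cilia or flagella were among the calls above PBS: Hoatz, Efcab10, Mlf1, Capsl, Fam183b, Nme5, Morn3 and Cfap206 rose by 0.58 to 1.21. Hoatz was at 0.87, 1.08, 0.77, 0.70 and 0.46 in Epi+ and at 0.11, -0.20, -0.54, -0.69 and -0.86 in PBS, a rise of 1.21 ± 0.13 (limma, adjusted p = 6.02e-05). Epi+ exceeded Stat6-/- for Hoatz by 0.63 (adjusted p = 0.0285) and OVA by 0.87 (adjusted p = 0.00102). For Cfap206 Epi+ exceeded Stat6-/- by 0.64 (adjusted p = 0.0477). Efcab10, Mlf1, Capsl, Fam183b, Nme5 and Morn3 differed from Stat6-/- by 0.14 to 0.61 without a call (adjusted p of 0.213 to 0.996). Against PBS, Stat6-/- was itself higher for Hoatz by 0.58 (adjusted p = 0.0425) and for Fam183b by 0.86 (adjusted p = 0.0290).

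Genes of iron and zinc handling moved in both directions. Trf, the iron carrier transferrin, fell by 1.18 ± 0.26 (adjusted p = 0.0185), the metal importers Slc39a8 and Slc39a4 by 1.19 ± 0.20 and 1.06 ± 0.19 (adjusted p of 0.00353 and 0.00634), and Aco1, an iron-sensing RNA-binding protein, by 0.62 ± 0.15 (adjusted p = 0.0378). The haem exporter Flvcr1 rose by 1.29 ± 0.27 (adjusted p = 0.0144) and the metal transporter Slc11a1 by 0.72 ± 0.16 (adjusted p = 0.0221). Inflammatory genes included falls of Tnf (0.94 ± 0.23 on the log2 scale, adjusted p = 0.0334), Tnfaip2 (1.30 ± 0.31, adjusted p = 0.0339), Cebpd (0.83 ± 0.22, adjusted p = 0.0445) and the decoy receptor Il1r2 (1.09 ± 0.20, adjusted p = 0.00632), and a rise of the signalling receptor Il1r1 by 0.84 ± 0.21 (adjusted p = 0.0379). Splicing and RNA-binding genes Son, Luc7l2, Luc7l3, Srsf11, Rbm5, Ccnl2 and Tia1 were lower by 0.72 to 1.05, and Rbm39 was higher by 0.92 ± 0.21 (adjusted p = 0.0242). Stat6-/- itself differed from PBS by -0.87 for Son (adjusted p = 0.0353) and by -0.75 for Luc7l2 (adjusted p = 0.0384). For Luc7l3, Srsf11, Rbm5, Ccnl2 and Tia1 it differed by -0.79 to -0.42, and for Rbm39 by 0.83, without a call. Luc7l2, Srsf11 and Tia1 each had 1 other probe, whose values are not given here. Subunits of the same chaperonin went apart, Cct7 higher by 0.83 ± 0.16 (adjusted p = 0.00925) and Cct8 lower by 0.69 ± 0.16 (adjusted p = 0.0312). In Stat6-/- the differences from PBS were 0.80 for Cct7 (adjusted p = 0.0293) and -0.14 for Cct8 (adjusted p = 0.654).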
